A study of Mus musculus with 288 samples.

Results

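The 7 core pluripotency factor genes Pou5f1, Sox2, Sall4, Utf1, Zfp281, Zscan10 and L1td1 were followed in single mouse embryonic stem cells that had been released from the naive state. They were taken by name from a count table of 54232 genes, of which 29287 had a read, and all 7 were found. E14 cells, a line of the 129/Ola strain, were grown in N2B27 medium with the kinase inhibitors CHIR99021 and PD0325901 and LIF (2i+LIF, labelled D0, 0 h). They were then moved to serum with LIF for 24 h (D1) or 48 h (D2), so that LIF was present in every group and the inhibitors in D0 alone. Cells were sorted into 96 wells per label and treated with the GpC methyltransferase M.CviPI, and polyadenylated RNA was sequenced from each cell as one of the layers of scNMT-seq. Of 288 wells, 233 passed a filter of over 200000 reads, over 2000 genes and a mitochondrial share under 0.15, namely 90 of D0, 50 of D1 and 93 of D2.

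A naive stem cell is held by a network of transcription factors, whose members behave differently when the inhibitors are withdrawn. Factors tied to the naive state, such as the KLF proteins, are known to be switched off, while a core built on OCT4 (encoded by Pou5f1) and its HMG-box partner SOX2 is known to persist into the formative and primed states. SALL4, UTF1, ZFP281 and ZSCAN10 are nuclear factors that act with this core, and L1TD1 is an RNA-binding protein made from a domesticated LINE-1 element. The label under which these genes were grouped, factors kept during exit, did not hold for all of them. Sox2 and Zfp281 were at least 2-fold lower in D2 than in D0, and the level of Sall4 and Zscan10 was carried by part of the cells. A share of 2 in 7 is near that of all genes, of which 28.1% were at least 2-fold lower. Sall4 and Zscan10 had a read in 57% and 64.5% of D2 cells after thinning to equal depth. The median gene in their range of mean level was read in 67.7% of D2 cells, so a read in only part of the cells was common there.

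Each label is a single culture as far as the descriptions show. Cells are therefore not replicates, no test between labels was run, and SD is the spread between cells. Levels are CPM, the reads of a gene scaled to the total reads of its cell, and a log2 ratio compares mean CPM + 1 between labels. Passing cells held 255040 to 10073010 reads in D0, 202157 to 43336922 in D1 and 491549 to 9812323 in D2. Thinned to 200000 reads each, they held a median of 7796.5 genes in D0, 8043 in D1 and 3946 in D2, so cells of D2 were poorer in genes at equal depth. The cells labelled D1 stood apart in a further way. Hprt, a purine salvage enzyme, had a read in 48 of 50 D1 cells with a mean of 207 CPM, against 9 cells and 3.08 CPM in D0 and 7 cells and 2.68 CPM in D2. Of these, 8 D0 cells and all 7 D2 cells sat in plate columns 11 and 12, and the 7 held a median of 7618 genes against 4734 in the other D2 cells. Without them and the D0 cells with an Hprt read, the same number of the 7 genes passed 2-fold in each direction in every comparison, and L1td1 in D2 over D0 was at 1.01. The widely used E14 subline E14TG2a lacks a working Hprt gene, and the study cites for its E14 cells the work that made HPRT-deficient mice from cultured cells. The genotype of each culture is not stated there. D1 may thus differ from D0 and D2 in its cells as well as in time, and these cannot be told apart in any ratio with D1. The cells carried stem cell markers, with 87.9% of the gene and cell pairs of a list of 10 pluripotent markers holding a read at equal depth in D0, 90.8% in D1 and 75.2% in D2. For 7 markers of primitive endoderm these shares were 3.02%, 2.57% and 1.38%, and Foxa2 had no read in any label. They were 8.15%, 13% and 3.23% for 6 markers of trophectoderm, 9.78%, 3.20% and 0.215% for 5 of mesoderm and 6.67%, 15.6% and 1.29% for 5 of ectoderm. Pax6, an eye and neural factor, had a read at equal depth in 28% of D1 cells and in 0% of D0 cells. The highest sum over the trophectoderm markers in a cell was 791 CPM in D0, 703 in D1 and 3216 in D2. Markers of other lineages were thus read in some cells of every label, and their part in the results was not tested.

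Pou5f1 lies on chromosome 17 (35506018 to 35510772), Sox2 on 3 (34650405 to 34652461), Sall4 on 2 (168748332 to 168767943), Utf1 on 7 (139943789 to 139945112), Zfp281 on 1 (136624901 to 136630053), Zscan10 on 17 (23600856 to 23611019) and L1td1 on 4 (98726734 to 98738480), in GRCm38 with GENCODE gene models. Pou5f1 shares 7.36% of its exonic 75-base windows with the antisense gene Gm19553, and Sall4 shares 6.70% with Gm14261 on the other strand. Whether counting used strand is not given, so reads there cannot be assigned. Sox2 lies within the longer transcript Sox2ot on the same strand, with no shared exonic window. Upstream sequences are shown for the 3 genes that were at least 2-fold higher in D2 than in D0 (Pou5f1, Utf1, L1td1) and for the 2 that were at least 2-fold lower (Sox2, Zfp281). They are the last 100 bases of the RefSeq promoters of GRCm38.p6 that lie before both the RefSeq start and the GENCODE start. The stretch thus ends at the GENCODE start for Pou5f1, Utf1 and L1td1, whose RefSeq starts lie 14, 67 and 20 bases further in, at the shared start for Zfp281, and 410 bases before the GENCODE start for Sox2. They are written 5′ to 3′ on the gene's strand, and capitals mark a GC box, GGGCGG or CCGCCC on the other strand:
Pou5f1, chr17:35505918-35506017, plus strand: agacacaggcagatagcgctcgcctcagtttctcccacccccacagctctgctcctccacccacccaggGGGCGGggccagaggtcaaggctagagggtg
Utf1, chr7:139943689-139943788, plus strand: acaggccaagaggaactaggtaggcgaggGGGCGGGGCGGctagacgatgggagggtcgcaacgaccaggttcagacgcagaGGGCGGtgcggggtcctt
L1td1, chr4:98726634-98726733, plus strand: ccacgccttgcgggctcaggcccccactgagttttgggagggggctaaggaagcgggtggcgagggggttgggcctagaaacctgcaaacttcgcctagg
Sox2, chr3:34649895-34649994, plus strand: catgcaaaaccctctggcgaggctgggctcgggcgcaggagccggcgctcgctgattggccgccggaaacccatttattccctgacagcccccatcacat
Zfp281, chr1:136624801-136624900, plus strand: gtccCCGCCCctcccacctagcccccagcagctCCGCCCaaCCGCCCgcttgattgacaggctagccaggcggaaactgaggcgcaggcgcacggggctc

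In the 250 bases before the RefSeq start, on both strands, the GC box was matched 4 times in Utf1, 4 times in Zfp281, 2 times in Sox2 and 1 time in Pou5f1. In Utf1, 2 of these matches overlap by a base. L1td1 and Zscan10 had none, and 32.7% of 32851 mouse promoters held a GC box in this window. The octamer ATGCAAAT, the letters bound by POU factors, was in none of the 6 member promoters in the table and in 1.60% of all. A SOX core (ACAAAG) was matched in Sox2 only, against 16.5% of all promoters. A GC box was thus present before 2 of the 3 genes that were higher in D2 and before both genes that were lower.

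Pou5f1, the POU-domain factor at the head of the network, ranged over cells from 0 to 893 CPM in D0 with a median of 486, from 66.9 to 1761 in D1 with a median of 534, and from 0 to 3404 in D2 with a median of 1564. The D2 cells were high as a group, with 83 of 93 above the highest D0 cell and 3 below the D0 median. The means were 502 ± 184 in D0, 633 ± 323 in D1 and 1524 ± 559 in D2 CPM (SD; n = 90, 50 and 93 cells), a log2 ratio over D0 of 0.33 for D1 and 1.60 for D2. The 2 D1 cells that lacked an Hprt read held 1232 and 1761 CPM, above the 1106 CPM that the other 48 reached at most, and without them the ratio of D1 over D0 was 0.25. Pou5f1 had a read in 89 of 90 D0 cells, 50 of 50 D1 cells and 92 of 93 D2 cells. It ranked at a median percentile of 96.3 among the detected genes of a cell in D0 and 97.9 in D2.

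Utf1, a chromatin-associated factor of undifferentiated cells, was, of the 7, the gene furthest above D0 in both later labels. Its cells ranged from 0 to 173 CPM in D0 with a median of 30.4, from 0 to 979 in D1 with a median of 352 and from 0 to 766 in D2 with a median of 245. The labels overlapped at the low end, but 41 of 50 D1 cells and 66 of 93 D2 cells lay above the highest D0 cell. The means were 41.8 ± 41.2, 371 ± 210 and 249 ± 146 CPM, 8.70-fold higher in D1 and 5.84-fold higher in D2 than in D0. Utf1 was also the member read in the fewest D0 cells. At equal depth 69 of 90 D0 cells held a read (76.7%, exact 95% binomial interval 66.6% to 84.9%), 49 of 50 D1 cells and 92 of 93 D2 cells (98.9%, 94.2% to 99.97%).

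L1td1 was higher in both later labels as well. Its cells ranged from 0 to 1078 CPM in D0 with a median of 276, from 45.7 to 2034 in D1 with a median of 579 and from 0 to 1653 in D2 with a median of 528. Only 7 D1 cells and 7 D2 cells lay above the highest D0 cell, while 96.0% of D1 cells and 82.8% of D2 cells lay above the D0 median. That D0 cell held only 2342 genes, and the next highest D0 cell had 550 CPM, below the D1 median. Mean CPM was 276 ± 141, 690 ± 388 and 569 ± 340, a log2 ratio over D0 of 1.32 in D1 (1.26 in the cells with an Hprt read) and 1.04 in D2. The D2 ratio lay just past 2-fold and fell short of it by the median over cells (0.94) and in plate columns 1 to 6 (0.83).

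Sox2, the HMG-box partner of OCT4, went the other way in D2. Its cells ranged from 0.684 to 317 CPM in D0 with a median of 55.9, from 0 to 389 in D1 with a median of 49 and from 0 to 172 in D2 with a median of 5.50. D0 and D1 overlapped over almost their whole range, and 82 of 93 D2 cells lay below the D0 median. The means of 65 ± 45.5 in D0 and 57.8 ± 59.8 in D1 differed by less than the spread between cells, and their log2 ratio was -0.17 by mean CPM, -0.10 by summed reads and 0.11 by summed reads with trimmed mean factors. D2 had 19.6 ± 34.2 CPM, 3.21-fold lower than D0. The log2 ratio of D2 over D0 was -1.68 by the mean, -2.41 in cells with at least 5000 genes and -3.13 by the median. One D1 cell held 13.4% of the summed CPM of that label. At equal depth 86 of 90 D0 cells and 47 of 50 D1 cells had a read, but only 46 of 93 D2 cells (49.5%, 38.9% to 60.03%).

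Zfp281, a zinc finger factor known to act in the exit from the naive state, was lowest of the 7 in D2. Its cells ranged from 0 to 525 CPM in D0 with a median of 79.6, from 0 to 283 in D1 with a median of 67.9 and from 0 to 220 in D2 with a median of 0. The D2 cells were low as a group, with 86 of 93 below the D0 median. The means were 110 ± 101 in D0, 80.1 ± 64.2 in D1 and 16.1 ± 43.3 in D2, and D2 was 6.47-fold lower than D0. At equal depth the share of cells with a read amounted to 92.2% (84.6% to 96.8%) in D0, 92% in D1 and 24.7% (16.4% to 34.8%) in D2.

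Sall4, a spalt-type zinc finger protein, and Zscan10, a SCAN-domain zinc finger protein, kept their mean but not their median. Sall4 ranged from 0.342 to 475 CPM in D0 with a median of 182, from 0 to 542 in D1 with a median of 244 and from 0 to 1239 in D2 with a median of 21.9. Its D2 cells were spread at both ends, since 33 of 93 lay below the lowest D0 cell and 9 above the highest. The means were 187 ± 91.1 in D0, 252 ± 124 in D1 and 162 ± 236 in D2, a log2 ratio of D2 over D0 of -0.21 by the mean and -3.00 by the median. The ratio was above 0 with reads summed over cells (0.07), more so with trimmed mean factors on these sums (0.34), and in the cells with at least 5000 genes (0.17). At equal depth Sall4 had a read in 89 of 90 D0 cells, 49 of 50 D1 cells and 53 of 93 D2 cells (57%, 46.3% to 67.2%).

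Zscan10 ranged from 0 to 395 CPM in D0 with a median of 92.4, from 0 to 395 in D1 with a median of 132 and from 0 to 2359 in D2 with a median of 21.2. D1 cells were within the D0 range, and 6 D2 cells lay above it while 73 lay below the D0 median. The means were 107 ± 77.8, 147 ± 90.1 and 111 ± 298 CPM, and a single D2 cell held 22.9% of the summed CPM of its label. The log2 ratio of D2 over D0 was 0.05 by the mean, -0.31 without that cell and -2.07 by the median. At equal depth Zscan10 had a read in 87 of 90 D0 cells, 49 of 50 D1 cells and 60 of 93 D2 cells (64.5%, 53.9% to 74.2%).

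**Figure D1:**
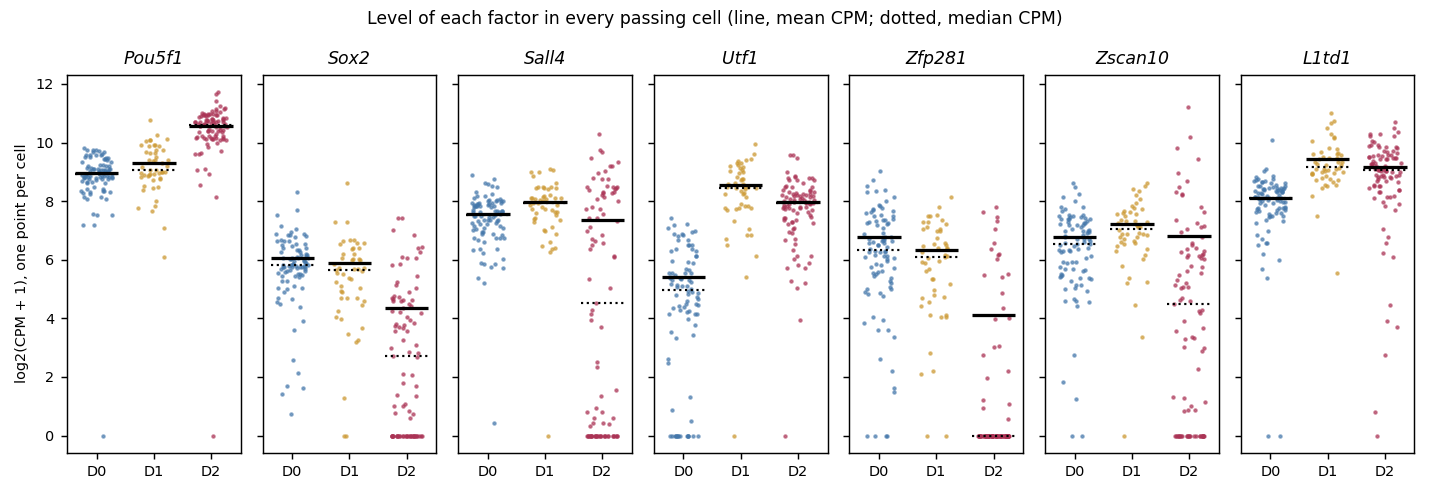
The level of each of the 7 genes in every passing cell, as log2(CPM + 1), with 90 cells of D0, 50 of D1 and 93 of D2 as points, the mean CPM as a line and the median CPM as a dotted line. In D2 most cells of Pou5f1, Utf1 and L1td1 lie above the D0 median, whereas D2 cells of Sall4 and Zscan10 spread from 0, at 29 and 26 cells, through low levels to levels above the D0 median, so that the mean and the median lie apart.

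**Figure D2:**
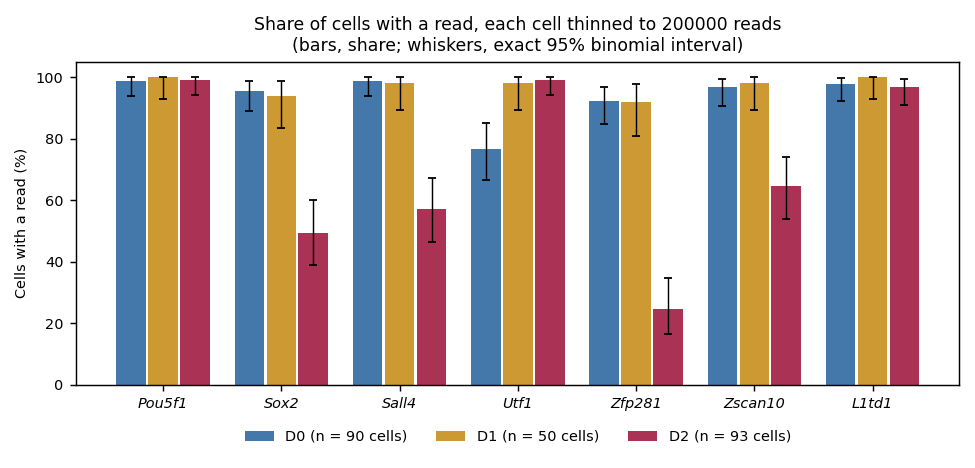
The share of cells with at least 1 read of each gene after every cell was thinned to 200000 reads, in percent, by label, with exact 95% binomial intervals as whiskers. In D2 Pou5f1, Utf1 and L1td1 are above 96%, Utf1 from 76.7% in D0, and Zfp281 is lowest at 24.7%.

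The question the time course puts to these genes is whether their level moved with or against the whole cell. In D1 over D0, 2 of the 7 genes were at least 2-fold higher and 0 at least 2-fold lower, where 13.2% of 10494 genes detected in 50% or more of the D0 or the D1 cells were higher and 25.1% lower. The 2 were Utf1 at the 98.8th percentile of all log2 ratios and L1td1 at the 91.4th, and the other 5 lay between the 41.6th (Zfp281) and the 73.8th (Zscan10). In D2 over D0, 3 were at least 2-fold higher and 2 at least 2-fold lower, against 9.74% and 28.1% of 8822 genes. Utf1 stood at the 99.5th percentile, Pou5f1 at the 97.2nd and L1td1 at the 90.9th, with Sox2 at the 15.8th and Zfp281 at the 5.70th. Both comparisons use the same D0 cells, so they are not independent of each other.

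In D2 over D1, 1 gene was at least 2-fold higher and 2 were at least 2-fold lower, against 15.0% and 19.4% of 9855 genes. Pou5f1 had a log2 ratio of 1.27, Sox2 of -1.52 and Zfp281 of -2.24, while Utf1 (-0.58) and L1td1 (-0.28) were lower in D2 than in D1 by less than 2-fold. The median log2 ratio over the 7 genes was 0.43 for D1 over D0, 0.05 for D2 over D0 and -0.58 for D2 over D1, beside -0.20, -0.24 and -0.07 over all genes ranked. In the D1 cells with an Hprt read alone, the ratio of D2 over D1 was 1.35 for Pou5f1, -0.55 for Utf1, -0.38 for Zscan10 and -0.22 for L1td1, and that of D1 over D0 was 0.43 for Zscan10. With reads summed over cells, trimmed mean factors moved the median over all genes by 0.19 for D1 over D0 and 0.26 for D2 over D0, relative to the sums without factors. Genes at least 2-fold higher made up 34.4% and 25.7% of those past 2-fold in either direction by mean CPM, 36.8% and 29.8% by summed reads and 48.4% and 44.3% by summed reads with the factors.

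**Figure D3:**
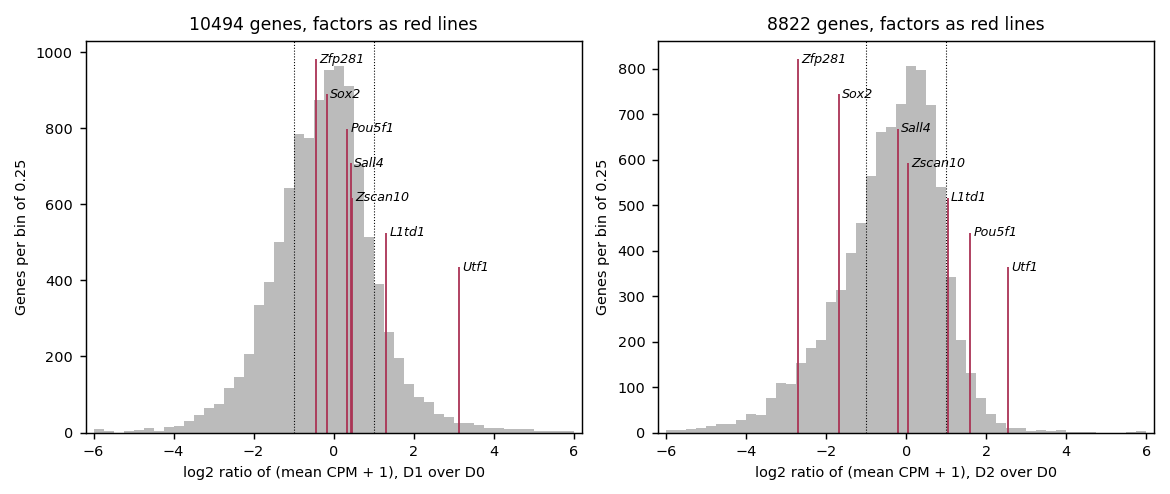
Histograms of the log2 ratio of (mean CPM + 1) of D1 over D0 (10494 genes) and D2 over D0 (8822 genes), with values beyond the axis gathered at its ends, the 7 genes as red lines of staggered height and dotted lines at 2-fold. Utf1 lies in the upper tail of both, and Sox2 and Zfp281 move to the lower tail in D2.

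Summed over the 7 genes, the share of all reads of a cell came to 0.129% ± 0.0305 in D0, 0.223% ± 0.0639 in D1 and 0.265% ± 0.0753 in D2 (SD between cells). Pou5f1 made up a median of 38.8% of this sum in D0, 29.2% in D1 and 58.9% in D2. Without Pou5f1 the share came to 0.0787% in D0, 0.160% in D1 and 0.113% in D2. The sum in D2 was thus carried mostly by Pou5f1.

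Per kilobase of exon, which allows genes to be compared, Pou5f1 led in D0 with 223 ± 81.8 CPM per kb, followed by L1td1 with 87.1 ± 44.6. Zscan10 (37.6), Utf1 (34), Sall4 (33.8), Sox2 (31.6) and Zfp281 (22.2) followed closely, and these 5 neighbours differed by less than their spread between cells. In D1 the level per kb of Utf1 (302 ± 171), Pou5f1 (281 ± 144) and L1td1 (217 ± 122) overlapped. In D2 Pou5f1 stood at 678 ± 249, then Utf1 at 203 ± 119 and L1td1 at 179 ± 107, with Sox2 at 9.51 and Zfp281 at 3.27.

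All 7 genes had a read at equal depth in 63 of 90 D0 cells and 44 of 50 D1 cells, and in only 8 of 93 D2 cells (8.60%). The median cell held 7 of them in D0 and D1 and 5 in D2. Beside them stand the 3155 genes read at equal depth in 90% or more of D0 cells, 6 of the 7 members among them, a choice by D0 values that left them little room to be seen more often later. They had a read in a median of 96.7% of D0 cells, 98.0% of D1 cells and 69.9% of D2 cells. Of the 6 members, Sox2 (49.5% of D2 cells), Sall4 (57%), Zscan10 (64.5%) and Zfp281 (24.7%) were seen less often than the median gene, and Pou5f1 and L1td1 (96.8%) more often. Of the first 4, Zfp281 alone lay below the lower quartile of these genes (46.2%). The part of the lower gene number of D2 cells in these shares was not tested. In 36 D2 cells with at least 5000 genes, 6 of them with an Hprt read, and 57 with fewer, Sall4 had a read at equal depth in 80.6% and 42.1%, Zscan10 in 77.8% and 56.1%, and Zfp281 in 38.9% and 15.8%. Sox2 had a read in 47.2% and 50.9% of them.

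**Figure D4:**
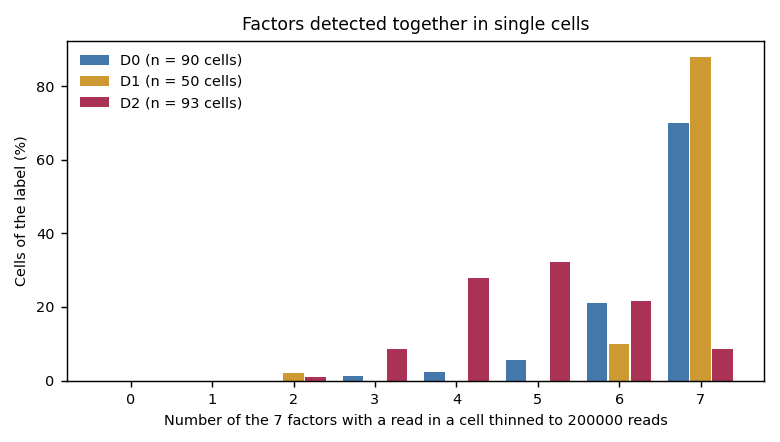
The share of cells of each label, in percent, that held a read of 0 to 7 of the 7 genes after thinning to 200000 reads. All 7 were read in 63 of 90 D0 cells and 44 of 50 D1 cells, and D2 peaks at 5 genes.

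The spread between cells, as the SD over the mean (CV), was set beside that of genes of similar level. Pou5f1 had a CV of 0.37 in D0, 0.51 in D1 and 0.37 in D2, although its mean differed 3.03-fold between D0 and D2. The median CV of genes in its range of mean CPM was 0.53, 0.57 and 0.47. Utf1 had a CV of 0.99 in D0, 0.57 in D1 and 0.59 in D2, where genes at its D2 level had a median of 1.51. Sall4 (1.46) was just under that median in D2 and Zscan10 (2.68) above it. In D0 they had 0.49 and 0.72, where genes at their level had a median of 0.71. Zfp281 reached 2.68 and Sox2 1.75 in D2, below the 3.79 of genes at their level. L1td1 had 0.60 in D2, against 0.88 at its level. In D2 the members other than Zscan10 thus varied less than the median gene of their level.

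**Figure D5:**
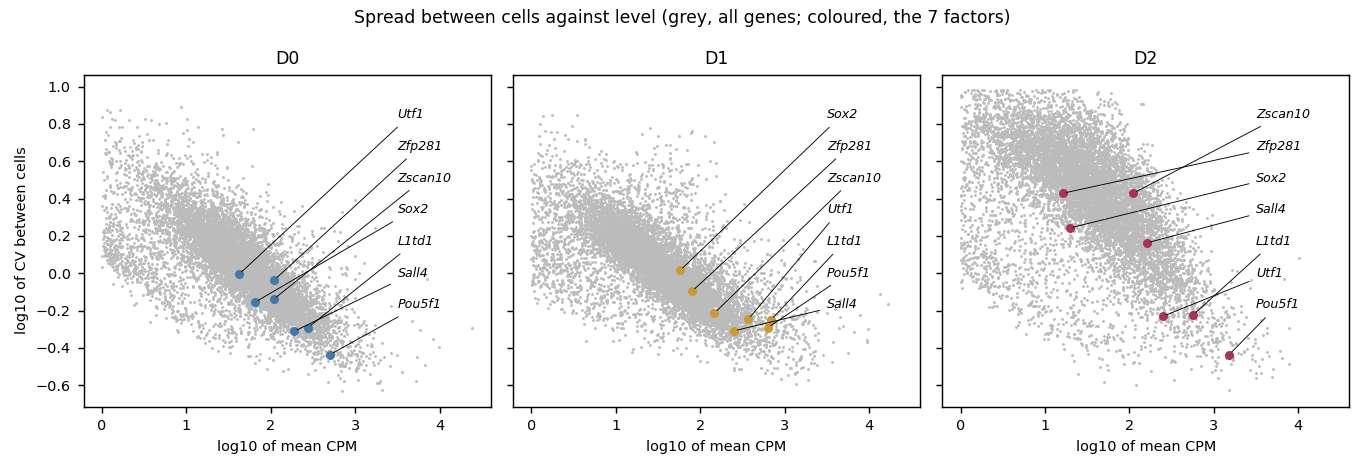
The log10 of the CV between cells against the log10 of mean CPM in D0, D1 and D2, with genes that had a mean of at least 1 CPM and were detected in 50% or more of the cells of any label in grey and the 7 genes in colour. The grey cloud lies higher in D2, where Pou5f1, Utf1 and L1td1 lie below the median CV of genes at their level.

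A few cells stood out. The D2 cell without a Pou5f1 read held 1037159 reads and 3988 genes, and had 69.4 CPM of Utf1, 21.2 of Zscan10 and 5.79 of L1td1 and no read of Sox2, Sall4 or Zfp281. The D0 cell without a Pou5f1 read held 892424 reads but only 2342 genes, with 1078 CPM of L1td1 and 363 of Zfp281. A D1 cell with 2172 genes had a read of Pou5f1 and L1td1 only. The D0 and D1 cells were the poorest in genes of their labels, the D2 cell was not, and leaving out the cells with no Pou5f1 read ended no 2-fold difference.

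Within a label the 7 genes varied with each other only weakly. Across the 21 pairs, Pearson's r of log2(CPM + 10) at equal depth ran from -0.17 to 0.36 in D0 (median 0.09, 90 cells), from -0.25 to 0.53 in D1 (median 0.25, 50 cells) and from -0.16 to 0.38 in D2 (median 0.08, 93 cells). The median Spearman's rho over these pairs was 0.07, 0.08 and 0.05, so the higher median of D1 was not seen by ranks. The highest values were those of Utf1 with Zscan10 (0.53) and with Pou5f1 (0.49) in D1. In D2 the highest was Pou5f1 with L1td1 (0.38), where Spearman's rho was -0.06. The cells share a plate and each a total, and the number of genes per cell moved with some of these levels. In D1 its r was 0.63 for Sall4 and 0.60 for Utf1. It ran from 0.01 (Utf1) to 0.53 (Pou5f1) in D0 and from -0.07 (Sox2) to 0.37 (Sall4) in D2. The part of the gene number in the pairs was not tested. Weak correlations in sparse counts are given as a description.

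The genes whose level across cells was most like that of each member were found over 2727 or 2728 genes detected in 50% or more of the cells of every label, by the mean of r over the 3 labels. Pou5f1 was most like Atp5b, a subunit of the mitochondrial ATP synthase, with a mean r of 0.74 (0.80 in D0, 0.76 in D1 and 0.65 in D2), followed by Eif5a (0.57) and Polr2c (0.57). No other member reached such a value. Sall4 was most like Arf1 (0.44), Pabpc1 (0.41) and Mrps7 (0.40), and Utf1 like Bud23 (0.45), Tubb4b (0.43) and Phb (0.43). L1td1 was most like Tubb4b (0.42), Txnl4a (0.41) and Smdt1 (0.41), and Zscan10 like Cops4 (0.37), Cdc37 (0.36) and Tkt (0.36). Sox2 was most like Acer2 (0.35), Cyb5a (0.32) and Tdgf1 (0.31), the Cripto co-receptor gene, and Zfp281 like Ddx3x (0.29), Xlr3a (0.28) and R3hdm1 (0.28). In D2 alone r was 0.06 for Sox2 with Cyb5a, 0.07 with Tdgf1 and 0.04 for Zfp281 with Ddx3x. The median over all genes compared lay between 0.04 for Zfp281 and 0.12 for Pou5f1. The 99th percentile lay between 0.23 for Sox2 and 0.47 for Pou5f1. Ranks were not used here, so single cells with no read can weigh on these values.

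The wider network was described by lists around the core. A gene was counted when it was detected in 50% or more of the cells of either label compared, and one that passed in D0 alone was favoured to be lower later. This was so in D2 for Zfp281 among the 7 genes and for 5 of 11 naive factors. It was so too for 1 of 11 OCT4 and SOX2 targets and 3 of 11 NuRD subunits. The same held for 4 of 13 esBAF genes and cofactors and 2 of 12 housekeeping genes. In D1 over D0 it was so for Tbx3 and Prdm14 among the naive factors and for Med12 among the esBAF genes and cofactors. Of 11 naive factors, 1 was at least 2-fold higher and 9 at least 2-fold lower in D1 than in D0. Of the 9 that passed in both labels these were 1 and 7. In D2 over D0 they were 1 and 7, and 1 and 2 of the 6 that passed in both labels. All genes had 25.1% lower in D1 and 28.1% in D2. In D2 over D1, 5 of 9 were higher and 2 lower, against 15.0% and 19.4% of all genes. Klf4, Tfcp2l1 and Nr5a2 entered that comparison through D1 cells alone. Of the 6 that passed in both labels, 4 were higher and 1 lower. Tfcp2l1, a transcription factor of the naive state, had a mean of 1598 CPM in D0, 51.9 in D1 and 220 in D2 (log2 ratio of D1 over D0 -4.92). Klf4, which passed in D0 alone in D2 over D0, had 85.9 CPM in D0 and 4.84 in D2 (-3.89). Nr0b1, an orphan nuclear receptor that binds OCT4, was the 1 higher in both, with 1.61 in D1 and 1.33 in D2. The median log2 ratio of the list was -2.13 in D1 and -1.78 in D2, against 0.43 and 0.05 for the 7 core genes. These medians include factors that passed in D0 alone, whose direction the filter favoured. In D2 over D0, those that passed in both labels were Klf5 (-2.58), Klf2 (-1.78), Nanog (-0.86), Esrrb (-0.60), Zfp42 (0.52) and Nr0b1 (1.33).

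Of 12 genes known as targets of OCT4 and SOX2, 11 were read widely enough. In D1 4 were at least 2-fold higher and 0 lower, and in D2 1 was higher and 3 lower. Of the 10 that passed in both labels in D2, 1 was higher and 2 lower. All genes had 13.2% higher and 25.1% lower in D1, and 9.74% and 28.1% in D2, so the D2 counts were near those of all genes. Dppa4, a chromatin protein of pluripotent cells, had log2 ratios of 1.83 in D1 and 1.57 in D2. At the low end in D2 were Trim71, a developmental RNA-binding ubiquitin ligase, with -3.22, and Rif1, a replication timing factor, with -2.11. Trim71 passed in D0 alone, so the filter favoured its direction.

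Proteins that SALL4, ZFP281 and OCT4 are known to bind formed a pair of lists. Of 11 subunits of the NuRD deacetylase complex, 0 were at least 2-fold higher and 4 lower in D1, and 0 and 5 in D2, beside the 25.1% and 28.1% of all genes that were lower. Of the 8 that passed in both labels in D2, 0 were higher and 3 lower. The lowest were Hdac2 in D1 (-1.76) and Gatad2b in D2 (-2.43), and Mbd3 lay at 0.66 and 0.57. Gatad2b passed in D0 alone in D2 over D0, so the filter favoured its direction. Of 13 subunits of the esBAF remodeller and other cofactors, 0 were higher and 4 lower in D1, and 0 and 1 in D2. The last was a share below the 28.1% of all genes that were lower. Of the 12 that passed in both labels in D1, 0 were higher and 3 lower. The 1 lower in D2 was Smarcc1, the core BAF155 subunit, with -2.13. Med12 was lowest in D1 with -2.71, but it passed in D0 alone, so the filter favoured its direction.

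Among 11 relatives of the core genes, 7 were read widely enough in D1 and 4 in D2. In D1, 3 of the 7 were read widely in D1 cells alone, and in D2 all 4 were read widely in D0 cells alone, so the filter favoured their direction and no count is given for them. The other 4 in D1, read widely in both labels, had 0 at least 2-fold higher and 2 lower. Zfp148, the closest relative of Zfp281, was lower in both (-1.51 and -2.06). Pou3f1, a POU factor of the formative and neural states, had a mean of 0.0888 CPM in D0 and 12.2 CPM in D1, and Sall2 had 0.0619 and 9.35, with no D0 cell holding a read of either at equal depth. Both entered through the cells labelled D1, which differed from the rest in Hprt as well, and no fold is given. Of 12 housekeeping genes, 3 were higher and 2 lower in D1 and 3 higher and 1 lower in D2. Of the 10 that passed in both labels in D2, 3 were higher and 0 lower. All genes again had 13.2% higher and 25.1% lower in D1, and 9.74% and 28.1% in D2. Ppia, a prolyl isomerase, lay at 2.79 and 1.36.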

How the data were processed

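Single-cell RNA-seq (scNMT-seq) of 288 wells, 96 for each of D0, D1 and D2, was analysed. The authors deposited 1 table of counts, whole-number read counts per gene and well, although the descriptions name a normalized table. Of its non-zero values, 78.2% in D0, 81.2% in D1 and 84.1% in D2 were even. Per the labels, reads were aligned with HISAT2 to GRCm38, and the counting tool and annotation are not given in the sources used here. No 2 wells held identical values. Groups came from the sample titles.

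Wells with over 200000 reads, over 2000 genes and a mitochondrial share under 0.15 were kept, 233 of 288. CPM used the total of all genes in a cell. For shares of cells, each cell was thinned to 200000 reads with a fixed seed. Ratios were log2 of mean CPM + 1, and genes detected in 50% or more of the cells of one of the labels compared were ranked. With 1 culture per label no test was run. Intervals are exact (Clopper-Pearson) at 95% and cover counting error only, since reads without molecular identifiers are not independent molecules. Exon lengths came from GENCODE vM21 and promoter sequences from RefSeq (GRCm38.p6), where 6 of the 7 genes were matched and Sall4 was not. Co-variation used log2(CPM + 10).

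The members and lists were chosen with earlier results of these data known. From each list, the pair of genes with the largest and the pair with the smallest ratio were eligible to be named. A few of these are not reported here. Likeness was the mean of Pearson's r over labels. Alternatives were another pseudocount, median or summed reads, TMM factors (edgeR 4.0.16) or median-of-ratios factors, thinning, other filters and sides of the plate, and 3 were added after seeing the data (at least 5000 genes, without cells lacking Pou5f1, and without D0 and D2 cells with an Hprt read). Python 3.11.15, numpy 2.4.6, pandas 2.3.3, scipy 1.17.1 and R 4.3.3 were used, and the code was tested on simulated data.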

Additional observations from a re-analysis of the deposited data

Results flagged for a closer look

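Reads of the 7 genes were also present in wells that had failed the filter on cells and entered no comparison. Among 46 such D1 wells, with a median of 1436.5 reads each and 357724 in all, a read was present in 17 wells for Pou5f1, 5 for Sox2, 13 for Sall4, 17 for Utf1, 2 for Zfp281, 7 for Zscan10 and 18 for L1td1. Pooled over these wells the levels were 498 CPM for Pou5f1, 44.7 for Sox2, 215 for Sall4, 380 for Utf1, 22.4 for Zfp281, 123 for Zscan10 and 721 for L1td1, above the 8.39 CPM that a count of 3 reads gives. One of these wells held 124454 of the pooled reads. In 6 failing D0 wells each gene but Utf1, which had none, had a read in 1 well. In 3 failing D2 wells with 1459044 reads, Pou5f1 had 3 reads, L1td1 had 1856 in 1 well and the other 5 genes had none.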

How the results depend on the processing

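Of 357 log2 ratios under alternatives, 0 of those past 2-fold changed sign, and 15 of those under 2-fold did, in Sox2 (D1 over D0), Sall4 (D2 over D0) and Zscan10. With no filter on cells, 1 gene was at least 2-fold lower in D1 over D0, in place of 0. By the median over cells, 4 were lower in D2 over D0 and 4 in D2 over D1, in place of 2. For both of these settings, the share of all genes at least 2-fold lower is not given here. Whether these counts differ from those of all genes was therefore not tested. Without a filter on genes, the share of all genes at least 2-fold lower was 14.4% for D1 over D0 and 17.7% for D2 over D0. Sox2 in D1 over D0 ran from -0.40 to 0.41. No paired analysis was possible because there is a single culture per label. The lower gene number of D2 cells, the Hprt difference of D1 and the absence of replicates limit every ratio.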
